A study of Homo sapiens with 4 samples.

Results

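Antisense long non-coding RNAs (lncRNAs) are transcribed from the strand opposite to a gene and carry its symbol followed by AS and a number. The antisense genes described here were those whose symbol in GENCODE 29 has this form and which were chosen by their measured level, that is whose level, averaged over the 4 libraries of the study, was at least 0.5 CPM, the count of a gene per 1000000 counts of its library. Of 1218 genes with such a symbol, 592 had a count in any library and 241 passed this level, among 14632 genes that passed it in all. MEF2C-AS1, MEF2C-AS2 and TMEM161B-AS1 were set aside by name. NEXN-AS1 (0.523 CPM) and ZNF528-AS1 (0.512 CPM) lay just inside the limit, and NDUFV2-AS1 (0.495 CPM), USP3-AS1 (0.493 CPM) and INTS6-AS1 (0.488 CPM) just outside. The gene named before the hyphen, called the sense partner, served only as the reference.

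The 4 RNA-seq libraries came from the human glioblastoma line U87MG and from R-U87MG, its derivative made resistant to the alkylating drug temozolomide (TMZ) and kept with TMZ in the medium. R-U87MG cells received non-targeting siRNA (si-NC) or siRNA against HDAC6 (si-HDAC6), a cytoplasmic deacetylase, and U87MG cells received si-NC or siRNA against the lncRNA LINC00461 (si-LINC00461). Each condition had 1 library. No spread between cultures could therefore be measured, and no p-value is given for any comparison. R-U87MG is 1 derived line, so resistance, drug exposure and the drift of a line in culture cannot be told apart. The libraries held 12596072 to 20027866 fragments, at which 3 counts, taken here as the smallest measurable level, equal 0.150 to 0.238 CPM. The mesenchymal genes VIM, CD44, TNC and FN1 stood at 1604 to 9976 CPM in every library, CHI3L1 of the same list at 42.1 to 99.96 CPM in 3 libraries and at 3555 CPM in U87MG si-LINC00461, the neural stem gene NES at 35.0 to 43.0 CPM and the glial gene OLIG2 at 0.749 to 9.13 CPM, whereas the markers GFAP, S100B and SOX2 lay at 0 to 0.731 CPM. Of 8 markers of cells the cultures should lack, PTPRC, CD14, CDH5 and RBFOX3 were below 1 CPM in every library, EPCAM, KRT8 and SYT1 at 1.29 to 11.0 CPM, and PECAM1 at 1.27 to 2.60 CPM but 24.4 CPM in U87MG si-LINC00461. Their part in the results was not tested. The targeted genes were lower where labelled, HDAC6 at 296 fragments without and 67 with its siRNA in R-U87MG, and LINC00461 at 363 without and 73 with its siRNA in U87MG. In RNA from whole cultures, fewer cells that express a gene and less RNA of it per cell cannot be told apart.

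Antisense lncRNAs differ in how they lie against their partner. A head-to-head pair starts from a shared promoter region and is copied in both directions, and such pairs are known to often share open chromatin. Other antisense genes lie inside an intron of the partner or cover its exons, where the RNAs could pair with each other. Some act on their partner, some act elsewhere in the cell, and for many no function is known. By the annotation, 235 of the 241 antisense genes had an annotated partner, on the opposite strand in each case. Exons of both genes shared bases in 169 pairs, the antisense gene lay in an intron or spanned the partner without a shared exonic base in 31, and the genes did not overlap in 35. HOXD-AS2, HOXB-AS1, HOXA-AS2, TRG-AS1, ZNF295-AS1 and RPARP-AS1 had no gene of the partner's name. The shared part was mostly small, with at least 50% of the exonic bases of the antisense gene shared in 10 pairs. In 91 pairs the 5′ ends lay within 1 kb of each other. GENCODE classes 172 of the genes as antisense, 30 as lincRNA and 30 as processed transcripts, and NCBP2-AS2 as protein coding. LRRC75A-AS1, EPB41L4A-AS1 and UBA6-AS1 hold small nucleolar RNAs, and 5 of the genes hold a microRNA.

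The promoter windows of 5 head-to-head genes are shown as examples of pairs in which both genes, or the antisense gene alone, differed between libraries in the next paragraphs. RefSeq (GRCh38.p14) gives for each start 250 bases before it and 50 bases after it, and 175 of the 241 genes had such a window. CG dinucleotides, the sites of DNA methylation, are in capitals. The windows lie at chr19:52397708-52398007 (minus strand), chr1:111739591-111739890 (plus), chr4:39527589-39527888 (plus), chr12:98516177-98516476 (minus) and chr16:30923220-30923519 (minus), in the order given.
ZNF528-AS1: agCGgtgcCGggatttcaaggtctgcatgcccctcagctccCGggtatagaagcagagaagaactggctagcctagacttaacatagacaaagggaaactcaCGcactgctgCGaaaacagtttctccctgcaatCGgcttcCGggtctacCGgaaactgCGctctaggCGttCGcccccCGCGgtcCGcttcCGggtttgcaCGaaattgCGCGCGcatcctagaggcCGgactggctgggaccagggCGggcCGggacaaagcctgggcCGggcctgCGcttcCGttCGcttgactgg
INKA2-AS1: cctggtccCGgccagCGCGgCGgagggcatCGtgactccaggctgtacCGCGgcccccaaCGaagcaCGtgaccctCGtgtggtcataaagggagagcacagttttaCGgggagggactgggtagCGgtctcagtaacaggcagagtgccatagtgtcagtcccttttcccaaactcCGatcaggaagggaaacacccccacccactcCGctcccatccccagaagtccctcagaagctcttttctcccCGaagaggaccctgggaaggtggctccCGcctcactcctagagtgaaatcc
UGDH-AS1: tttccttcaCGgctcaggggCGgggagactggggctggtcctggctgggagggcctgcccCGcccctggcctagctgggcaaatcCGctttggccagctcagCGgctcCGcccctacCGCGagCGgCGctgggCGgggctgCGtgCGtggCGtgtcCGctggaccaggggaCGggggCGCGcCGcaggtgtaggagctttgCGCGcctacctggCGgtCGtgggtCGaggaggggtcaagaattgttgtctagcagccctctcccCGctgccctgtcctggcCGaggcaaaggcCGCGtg
TMPO-AS1: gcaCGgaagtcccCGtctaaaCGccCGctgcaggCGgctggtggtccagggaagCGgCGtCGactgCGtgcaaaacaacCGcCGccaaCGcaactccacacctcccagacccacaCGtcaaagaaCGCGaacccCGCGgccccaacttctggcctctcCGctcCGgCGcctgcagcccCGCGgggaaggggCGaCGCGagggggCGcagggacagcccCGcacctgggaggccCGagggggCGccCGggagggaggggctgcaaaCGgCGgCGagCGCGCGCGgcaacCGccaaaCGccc
FBXL19-AS1: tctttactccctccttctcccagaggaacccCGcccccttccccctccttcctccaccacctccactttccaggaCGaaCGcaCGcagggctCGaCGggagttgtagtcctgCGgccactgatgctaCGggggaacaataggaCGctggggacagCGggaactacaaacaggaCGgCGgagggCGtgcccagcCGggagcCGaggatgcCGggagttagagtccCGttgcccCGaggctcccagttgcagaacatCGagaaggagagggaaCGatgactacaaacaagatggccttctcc
The start of ZNF528 lies 83 bases from that of ZNF528-AS1, so this window holds both. The distance between the starts was 417 bases for INKA2-AS1, 292 bases for UGDH-AS1, 910 bases for TMPO-AS1 and 214 bases for FBXL19-AS1. The ZNF528-AS1 window holds 26 CG dinucleotides, INKA2-AS1 16, UGDH-AS1 28, TMPO-AS1 39 and FBXL19-AS1 20. The median was 26.5 over 58 head-to-head genes with a window, 20 over 117 other antisense genes, and 14.0 over all 34943 RefSeq windows. CG counts of these windows are a description and say nothing of methylation in these cells.

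Most of the antisense genes were expressed at low levels and a few at very high ones. Their summed share of a library was 0.188% and 0.194% in R-U87MG (control and si-HDAC6) and 0.150% and 0.132% in U87MG (control and si-LINC00461). The median gene had 1.52 to 1.91 CPM in a library, and LRRC75A-AS1, PAX8-AS1, FGD5-AS1 and OIP5-AS1 led the mean levels. The 4 highest genes of a library supplied 28.9% to 38.3% of the CPM of all 241. LRRC75A-AS1, a host of the small nucleolar RNAs SNORD49A, SNORD49B and SNORD65, had 250 CPM in R-U87MG si-NC, 244 in si-HDAC6, 165 in U87MG si-NC and 99.9 in si-LINC00461. PAX8-AS1 had 232, 294, 69.0 and 52.2 CPM in the same order, and so was higher in both R-U87MG libraries. FGD5-AS1 varied least among these, from 110 to 146 CPM. OIP5-AS1, also known as Cyrano, ranged from 84.6 to 121 CPM. MAGI2-AS3, OTUD6B-AS1, PSMA3-AS1, ZMIZ1-AS1, SVIL-AS1 and MSC-AS1 completed the 10 highest.

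Per kb of exon, the antisense gene was usually the lower of its pair. In U87MG si-NC the median ratio of antisense to sense level per kb was 0.129, over 221 pairs with a count of the partner, and in the other libraries it was 0.103 to 0.119. Among pairs with a count of the partner, the antisense gene exceeded it per kb in 40 to 44 pairs of a library. Pairs whose partner had no count in that library are left out of these numbers. LRRC75A-AS1 stood at 43.9 CPM per kb in U87MG si-NC and its partner LRRC75A at 0.284. FGD5-AS1 stood at 21.4 CPM per kb, while FGD5, an endothelial gene, had no fragment in that library. CD27, SLC9A3, CKMT2, ALOX12, TMEM202 and DBH had no count in any library although their antisense genes passed the level. Averaged over the libraries, and with partners without a count included, 7 of the 91 head-to-head genes and 47 of the 144 others with a partner exceeded their partner per kb. At the other end, VIM-AS1 had 2.41 CPM per kb in U87MG si-NC against 1227 for VIM, the intermediate filament gene, and made up 0.0757% of the counts of the pair.

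**Figure D1:**
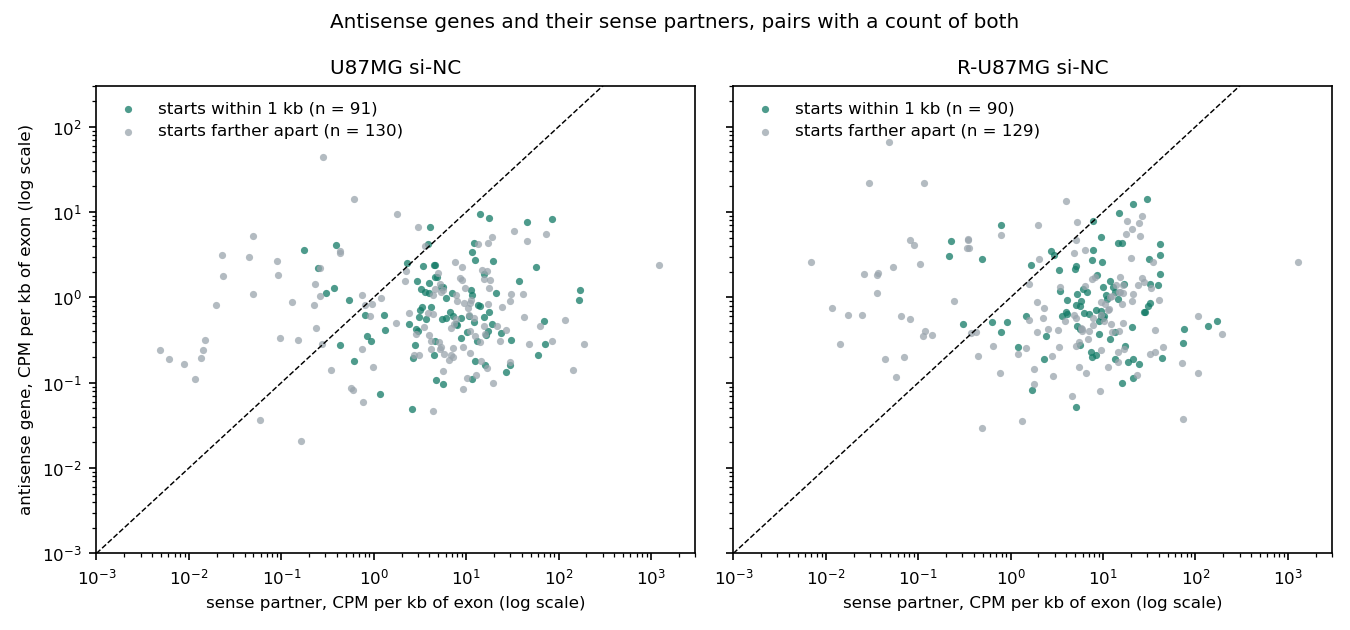
Level of each antisense gene (vertical axis) against its sense partner (horizontal axis), both in CPM per kb of exon on log scales, in U87MG si-NC and R-U87MG si-NC, for pairs with a count of both genes. The dashed line marks equal levels, green points are pairs with starts within 1 kb, and most points lie below the line (median ratio 0.129 and 0.103).

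Whether sense reads could have been counted for the antisense gene was checked in the deposited values. The library kit keeps the strand of the RNA, but whether the counting used it is not given in the sources used here. Of 47 antisense genes of any level in U87MG si-NC with at least 50% of their exonic bases inside exons of a partner of at least 20 CPM, 28 had no count. Another 4 exceeded 10% of the partner's level per kb, and the highest reached 26.9%. A smaller share of sense reads cannot be told apart from antisense transcription in these values. Stretches of 50 bases taken every 10 bases along each gene were also looked up in transcripts of other genes on the same strand. For 218 of the 241 genes under 5% of the stretches recurred, and NUTM2A-AS1, which shares sequence with NUTM2B-AS1, was the only gene with at least 50%. Values of that pair are uncertain.

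For the knockdowns and the comparison of lines, counts were scaled with TMM, a method that sets the bulk of the genes equal between libraries. Each log2 ratio was computed on counts with a pseudocount of 0.5, which understates differences of genes with few counts. Its 95% interval is the exact binomial one of Clopper and Pearson and takes in the error of counting alone. A gene was called when it differed at least 2-fold. The counts over the 241 genes are set beside the share of all 14632 genes called by the same rule.

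HDAC6 knockdown in R-U87MG left the antisense genes near their control levels. Of the 241, 3 passed the 2-fold limit downwards and 7 upwards in si-HDAC6, that is 1.24% and 2.90%, beside 2.15% and 1.93% of all genes. Genes of 0.5 to 5 CPM, the range that holds 176 of the antisense genes, were called at 7.64% lower and 6.66% higher. Of these 176 antisense genes, 1.7% were called lower and 3.98% higher. The median log2 ratio was -0.01 (0.00 for all genes). None of the 65 antisense genes with a mean of at least 5 CPM was called. The interval excluded no change for 1 of the lower and 5 of the higher genes, beside 0.895% and 0.970% of all genes.

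The highest ratio belonged to CPEB1-AS1, antisense to the gene of a cytoplasmic polyadenylation factor. Its 3 counts in the R-U87MG control stood against 16 after the knockdown (log2 ratio 2.60, interval 1.01 to 5.24), and both U87MG libraries were in the same range with 6 and 9. CPEB1 had 182 and 170 counts in the R-U87MG pair. CPEB1-AS1 was the only antisense gene with an interval wholly beyond 2-fold in this comparison (beside 0.171% of all genes). STK4-AS1 starts 72 bases from STK4, which encodes the Hippo pathway kinase MST1. Its 6 control counts stood against 21 with si-HDAC6 (2.10, interval 0.85 to 3.80), while STK4 had 2836 and 2070 counts, a log2 ratio of -0.06. USP46-AS1, head-to-head with the gene of a deubiquitinase, had 19 and 31 counts (1.08, interval 0.24 to 2.01) and USP46 had 769 and 528. PTOV1-AS1 had 14 and 25 counts (1.20, interval 0.24 to 2.29). RAP2C-AS1 had 9 and 16 counts, and its interval reached -0.04. A1BG-AS1 had 0 and 1 count, both at or below 3, so no fold is given although the pseudocount placed it among the 7.

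ENTPD3-AS1, antisense to the gene of an ectonucleotidase, was the single pair in which both genes were called, and in opposite directions. This was 0.498% of 201 pairs whose partner averaged at least 0.5 CPM. The matching share of opposite-strand neighbour pairs of any kind was not computed. ENTPD3-AS1 counted 10 fragments in the control and 21 with the siRNA (1.42, interval 0.32 to 2.72), while ENTPD3 had 27 and 10 (-1.0, interval -2.25 to 0.06). The lower genes were PITRM1-AS1 with 19 and 5 counts (-1.45, interval -3.30 to -0.06), KIAA1614-AS1 with 18 and 5 (-1.37, interval -3.23 to 0.03) and B3GALT5-AS1 with 4 and 0. The fragment number of PITRM1-AS1 was not whole in the deposited values, as for 11 of the 241 genes, so fragments may have been divided between it and another gene.

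The ratio of antisense to sense counts within a pair needs no scaling between libraries. Over 201 pairs whose partner also averaged at least 0.5 CPM, this ratio differed at least 2-fold between si-HDAC6 and si-NC in 13 (6.47%), beside 6.18% of 3107 opposite-strand neighbour pairs of any kind. For 6 the interval excluded no difference (beside 2.86% of the neighbour pairs), all with relatively more antisense RNA in si-HDAC6. They were RAP2C-AS1 (1.21), CPEB1-AS1 (2.33, interval 0.64 to 4.03), ENTPD3-AS1 (2.42, interval 0.94 to 3.90), STK4-AS1 (2.18, interval 0.91 to 3.45), USP46-AS1 (1.23, interval 0.40 to 2.06) and JMJD1C-AS1 (1.10, interval 0.02 to 2.18). The 4 pairs lower by at least 2-fold were B3GALT5-AS1, HMGN3-AS1, PITRM1-AS1 and ADORA2A-AS1, each with an interval that held 0.

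**Figure D2:**
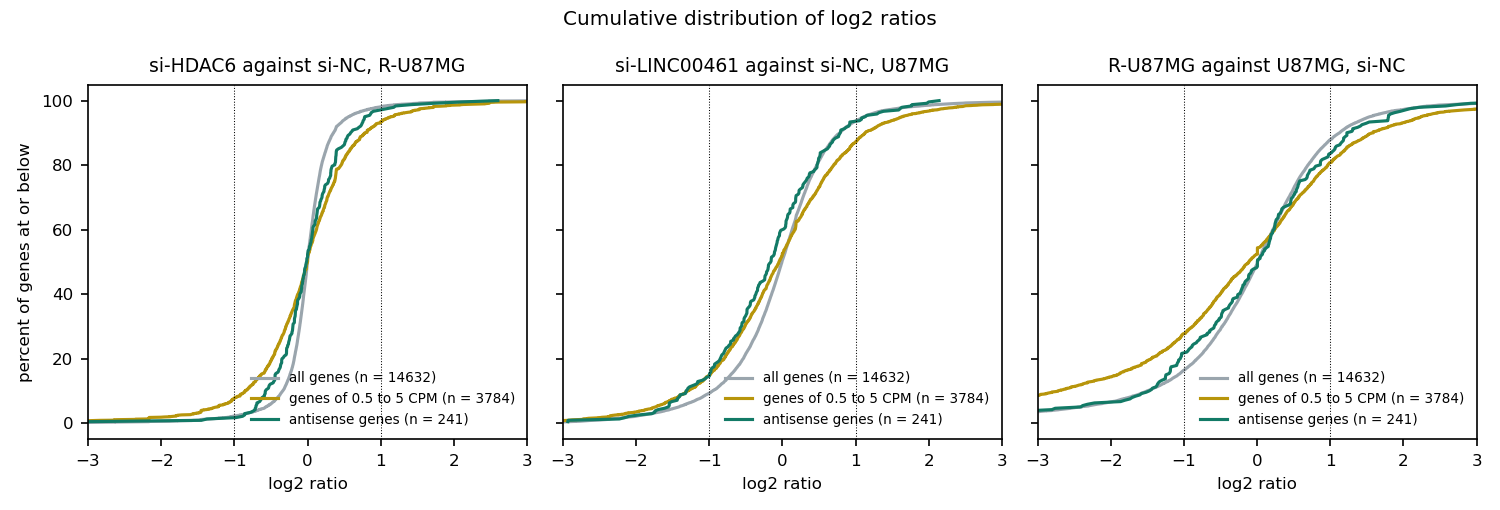
Percent of genes (vertical axis) at or below a log2 ratio (horizontal axis) in the 3 comparisons, for all genes, genes of 0.5 to 5 CPM and the 241 antisense genes, with dotted lines at 2-fold and the axis ending at 3 either way. The antisense curve is steep around 0 for si-HDAC6 (median -0.01), sits left of all genes for si-LINC00461 (median -0.15) and is wide between the lines (52 genes lower and 40 higher).

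LINC00461 knockdown in U87MG went with many more differences, and more of them lower than higher. Of the 241 antisense genes, 34 passed the 2-fold limit downwards and 16 upwards in si-LINC00461, that is 14.1% and 6.64%, beside 9.18% and 6.37% of all genes. Among genes of 0.5 to 5 CPM the shares were 14.7% and 12.9%, and among the 176 antisense genes in that range 17.0% and 9.09%. Among 906 other lncRNAs they were 15.8% and 9.38%. The median log2 ratio was -0.15 for the antisense genes, -0.20 for the other lncRNAs and 0.00 for all genes. Below 0 were 144 of the 241. The interval excluded no change for 24 of the lower and all 16 of the higher genes, beside 8.31% and 5.72% of all genes. It lay wholly beyond 2-fold for 5 and 2, beside 4.41% and 2.8%.

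GAS6-AS1 (ENSG00000233695, chr13:113815630-113845744, plus strand, GRCh38), antisense to the gene of GAS6, a ligand of the AXL receptor family, counted 134 fragments in the U87MG control and 15 after the knockdown (-2.93, interval -3.85 to -2.19). GAS6 itself had 1353 and 1030 counts (-0.20). VAC14-AS1 (chr16:70755098-70773251, plus strand), antisense to the gene of a scaffold protein of phosphoinositide metabolism, had 73 and 8 counts (-2.93, interval -4.26 to -1.95), whereas VAC14 had 1729 and 2854 (0.91). VAC14-AS1 thus made up 4.05% of the counts of its pair in si-NC (95% exact binomial interval 3.19 to 5.07) and 0.280% in si-LINC00461 (0.121 to 0.550). FBXL19-AS1, head-to-head with the gene of an F-box protein that binds CpG islands, had 150 and 39 counts (-1.74, interval -2.30 to -1.24) and FBXL19 had 1371 and 1550. LOXL1-AS1 had 465 and 138 counts (-1.56, interval -1.85 to -1.28), and its partner LOXL1, a lysyl oxidase that cross-links elastic fibres, was also lower with 5283 and 2035 (-1.18). FEZF1-AS1 had 70 and 18 counts (-1.74, interval -2.60 to -1.0) and the antisense RNA of the HOXA cluster HOXA-AS2 had 31 and 6 (-2.10, interval -3.73 to -0.90). PTPRD-AS1 with 18 and 3 counts, ATP2A1-AS1 with 12 and 2, and FLG-AS1 with 17 and 4 rested on few fragments.

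Of the higher genes, POC1B-AS1, head-to-head with the gene of a centriolar protein, counted 12 fragments in the control and 48 after the knockdown (2.14, interval 1.26 to 3.24) and POC1B had 203 and 315 (0.82). ZNF295-AS1 had 23 and 82 counts (2.0, interval 1.34 to 2.76). TMEM254-AS1 had 6 and 22, FUT8-AS1 14 and 43, CPB2-AS1 5 and 16, and TSPEAR-AS2 7 and 20 counts. SPRY4-AS1, in an intron of SPRY4, a feedback inhibitor of receptor tyrosine kinase signalling, had 9 and 25 counts (1.61, interval 0.52 to 2.95), and SPRY4 had 542 and 1978 (2.06). Among the most abundant, FGD5-AS1 had 2196 and 2590 counts (0.43), OIP5-AS1 2418 and 1504 (-0.49), and LRRC75A-AS1 3306 and 1776 (-0.71), each with an interval that excluded no change and none called.

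The genes were also listed by the role of the partner, with earlier results of these data known, so the counts describe the lists and are no evidence about them. They are to be read beside the 9.18% lower and 6.37% higher of all genes and the median of 0.00. All 9 genes with a partner in the extracellular matrix, adhesion or cytoskeleton had a log2 ratio below 0 (median -0.74) and 4 were called lower: GAS6-AS1, PXN-AS1 (22 and 6 counts), LOXL1-AS1 and HAS2-AS1 (21 and 6 counts). The partners of the last 3 encode the focal adhesion protein paxillin, LOXL1 and a hyaluronan synthase. Of 7 genes with a partner in cell division, replication or repair, 6 were below 0 (median -0.73) and TMPO-AS1 was called lower, with 21 and 6 counts (-1.54, interval -3.21 to -0.26). TMPO, which encodes a lamina-associated protein, was lower by a similar factor, with 789 and 225 counts (-1.62). The lists went by the symbol before the hyphen, also where no gene of that name is annotated. This holds for HOXA-AS2, HOXB-AS1, HOXD-AS2 and ZNF295-AS1 under transcription, and for RPARP-AS1 under RNA processing. Of 33 genes listed under transcription and chromatin, 4 were lower, among them HOXA-AS2, and 1 higher, ZNF295-AS1 (median -0.10). Of 29 in signalling, 3 were lower and 2 higher (median -0.04), and of 21 in metabolism 3 and 0 (median -0.20). Of 14 listed under the ubiquitin system or chaperones 1 was lower, and of 10 under RNA processing and translation 1 was higher (medians -0.29 and 0.28). In si-HDAC6, where 2.15% of all genes were called lower and 1.93% higher, these 7 lists held 1 lower and 3 higher genes together.

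Of the 201 pairs, 59 (29.4%) had a ratio that differed at least 2-fold between si-LINC00461 and si-NC, beside 25.2% of the neighbour pairs, and in 41 of the 59 the antisense gene was relatively lower. The neighbour pairs were not split by direction, and the other lncRNAs too had a median log2 ratio below 0 (-0.20). Both genes were called lower in 7 pairs and both higher in SPRY4-AS1 and SPRY4 alone, and no pair was called in opposite directions. The 8 pairs called in 1 direction were 3.98% of the pairs, beside 1.71% of the neighbour pairs, of which 0.708% were called in opposite directions. In 30 pairs the antisense gene alone was called and in 15 the sense gene alone, and the matching shares of neighbour pairs were not computed. Most antisense genes lay at 0.5 to 5 CPM. Of all genes in that range 14.7% were called lower and 12.9% higher, beside 9.18% and 6.37% of all genes. Among pairs with at least 20 counts of each gene, the lowest differences of the log2 ratio of antisense to sense were those of VAC14-AS1 (-3.84, interval -4.86 to -2.81), GAS6-AS1 (-2.72, interval -3.49 to -1.96), TTC28-AS1 (-2.30, interval -2.73 to -1.86), FBXL19-AS1 (-2.11, interval -2.62 to -1.59) and C1RL-AS1 (-1.98, interval -2.39 to -1.58). The highest were those of RAP2C-AS1 (2.18), MZF1-AS1 (2.02), B3GALT5-AS1 (1.92), PTPRG-AS1 (1.91) and OIP5-AS1 (1.88). For OIP5-AS1 this came with 44 and 7 counts of OIP5, a centromere protein gene, while OIP5-AS1 itself had a log2 ratio of -0.49. The head-to-head pairs TMPO-AS1 (0.08, interval -1.20 to 1.37) and FBXL19-AS1 (-2.11), both with their windows printed above, differed in this measure.

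**Figure D3:**
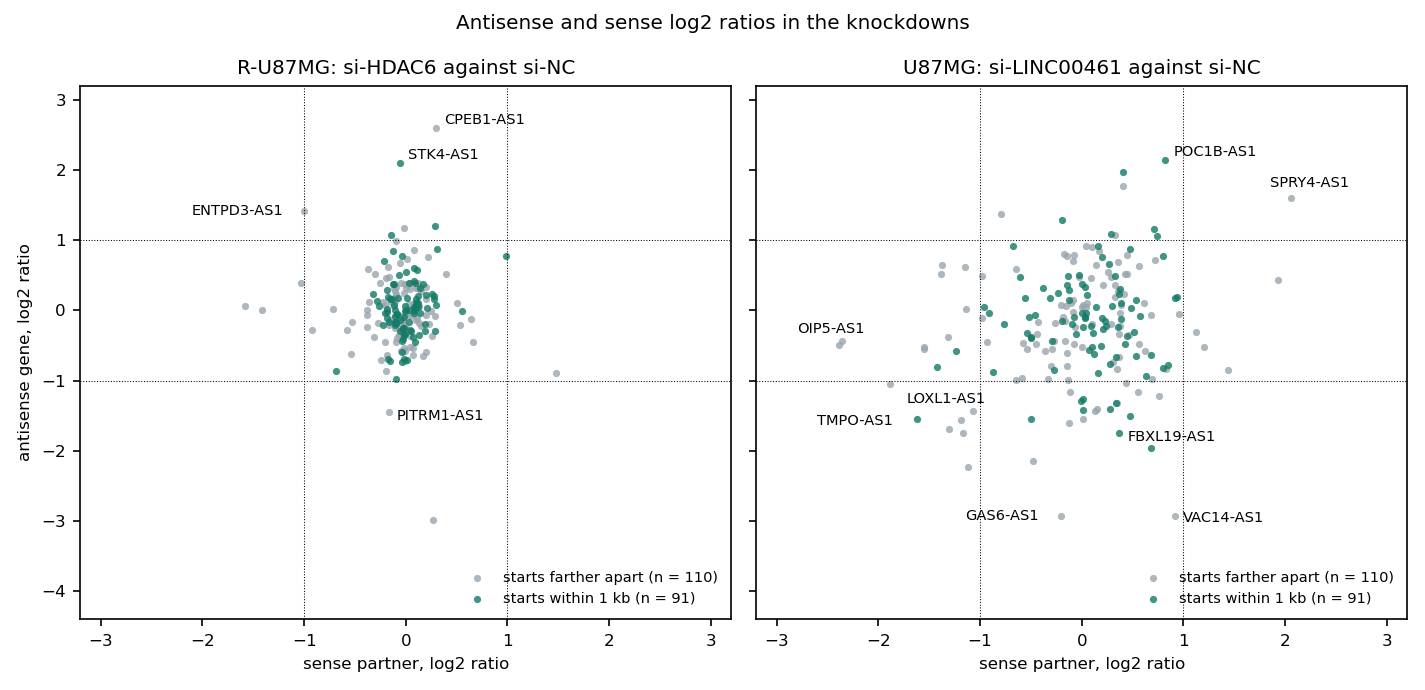
Log2 ratio of each antisense gene (vertical axis) against that of its sense partner (horizontal axis) for 201 pairs, in si-HDAC6 against si-NC (left) and si-LINC00461 against si-NC (right), on the same axes with dotted lines at 2-fold. Points crowd at the centre on the left, and on the right GAS6-AS1 and VAC14-AS1 (both -2.93) lie far below partners at -0.20 and 0.91.

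The 2 knockdowns share no library. Of the 10 antisense genes called in si-HDAC6 and the 50 called in si-LINC00461, A1BG-AS1, KIAA1614-AS1 and RAP2C-AS1 were in both, which is 30.0% of the former and 6.0% of the latter. Over all genes, 223 were called in both, 37.3% of the 598 called in si-HDAC6 and 9.8% of the 2275 called in si-LINC00461. A1BG-AS1 was called in si-HDAC6 on 0 against 1 count. RAP2C-AS1 was higher in both, with 9 and 16 counts in R-U87MG and 8 and 19 in U87MG. KIAA1614-AS1 had 18 and 5 counts in R-U87MG and 7 and 16 in U87MG, that is opposite directions.

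The largest differences lay between the lines. In R-U87MG si-NC against U87MG si-NC, 52 antisense genes passed the limit downwards and 40 upwards. That is 21.6% and 16.6%, beside 16.4% and 12.1% of all genes. Of genes of 0.5 to 5 CPM 27.7% and 19.2% were called, and of the 176 antisense genes in that range 23.9% and 19.3%. With library totals in place of TMM, which shifts every log2 ratio of this comparison by 0.26, the split was 33 lower and 52 higher. The authors scaled each pair of libraries on its own, and this comparison crosses the pairs. It shares its libraries with both knockdown comparisons, so values are set side by side only. Of the 52 lower genes, 12 averaged under 0.5 CPM in R-U87MG and passed the limit only through U87MG, so these had to differ, and so did 10 of the 40 higher genes, through R-U87MG. The count of 52 and 40 includes them.

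A stricter description, chosen after the data were seen, asked that both R-U87MG libraries lie at least 2-fold beyond both U87MG libraries in CPM. By it, 15 antisense genes (6.22%) were lower in R-U87MG and 27 (11.2%) higher, beside 8.19% and 10.9% of all genes. Of these, 8 of the 15 and 8 of the 27 averaged under 0.5 CPM in the line where they were low, so the level limit required them to differ. CPM rests on library totals and not on TMM, and library totals gave 33 lower and 52 higher in the controls. The 15 and 27 are therefore not comparable in direction with the 52 and 40 on TMM. At or near 0 in R-U87MG were several that U87MG expressed, some together with their partner. The 5 genes described next passed the limit through U87MG alone, so their low level in R-U87MG followed from how they were chosen and is a description. TP73-AS1 (chr1:3735511-3747373, minus strand), antisense to the p53 family gene TP73, had 4 and 2 counts in R-U87MG si-NC and si-HDAC6 and 276 and 338 in U87MG si-NC and si-LINC00461 (log2 ratio of the controls -5.94, interval -7.99 to -4.73). TP73 had 0 and 1 against 31 and 6 counts. ADAMTS9-AS2 had no fragment in either R-U87MG library and 41 and 25 in U87MG, at least 13.6-fold lower in the controls with 0 set to 3 counts. ADAMTS9, a secreted protease gene, had 8 and 2 against 159 and 322. A1BG-AS1 had 0 and 1 against 45 and 87 counts, at least 15-fold lower in the controls, and A1BG had 0 and 1 against 18 and 16. ADORA2A-AS1 had 2 and 1 against 45 and 48 counts (-4.18, interval -7.58 to -2.55) and the adenosine receptor gene ADORA2A 34 and 41 against 649 and 727 (-4.23). STEAP3-AS1 had 2 and 1 against 35 and 33 counts (-3.82, interval -7.23 to -2.16), whereas STEAP3, an iron reductase gene, had 5570 and 3963 against 10766 and 9767.

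In several head-to-head pairs both genes differed in the same direction between the lines. ZNF528-AS1 too passed the level limit through U87MG alone. ZNF528-AS1 had 0 and 0 counts in R-U87MG and 23 and 16 in U87MG, and the zinc finger gene ZNF528 had 0 and 0 against 74 and 70. In the controls this was at least 7.64-fold lower for the antisense and at least 24.6-fold lower for the sense gene. INKA2-AS1 had 24 and 9 against 326 and 220 counts (-3.73, interval -4.42 to -3.16), and INKA2, an inhibitor of the kinase PAK4, had 419 and 298 against 5786 and 3583 (-3.78). The ratio within the INKA2 pair differed by 0.05 (interval -0.56 to 0.66). ZNF503-AS2 had 81 and 64 against 553 and 576 counts and ZNF503 941 and 710 against 5655 and 4219. SLC2A1-AS1 had 15 and 12 against 82 and 39, and SLC2A1, the glucose transporter gene GLUT1, had 1373 and 1279 against 15960 and 7655, a steeper difference (-3.53 against -2.41). UGDH-AS1 was higher in R-U87MG with 197 and 152 against 46 and 37 counts (2.09, interval 1.63 to 2.60), as was UGDH, whose enzyme makes UDP-glucuronate, with 2773 and 1845 against 1096 and 1254 (1.34). RNASEH1-AS1 had 291 and 192 against 84 and 61 counts.

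Over the 201 pairs, both genes were called lower in R-U87MG in 14, both higher in 7, and in opposite directions in 5. The 21 pairs called in 1 direction were 10.4% and the 5 opposite ones 2.49% of the pairs, beside 5.21% and 1.93% of the neighbour pairs. These counts include antisense genes that passed the level limit through 1 line alone and so had to differ. Among them were ZNF528-AS1, ADAMTS9-AS2 and ADORA2A-AS1 through U87MG. NEXN-AS1 and, of the opposite pairs, TMEM44-AS1 passed through R-U87MG. The 91 head-to-head pairs supplied 9 of the 21 pairs called in 1 direction and 0 of the 5 opposite ones, and the 110 other pairs supplied 12 and 5. Fewer genes were called in the head-to-head pairs, 31 antisense and 14 sense genes against 46 and 39 in the others, and the difference between the arrangements was not tested. In the NRSN2 pair, singled out after its values were seen, the more abundant strand differed between the lines. NRSN2-AS1 (chr20:320313-348224, minus strand), which starts 1442 bases from NRSN2, had 69 and 36 counts in R-U87MG and 34 and 11 in U87MG (1.01, interval 0.41 to 1.66), whereas NRSN2, a neuronal vesicle protein gene, had 4 and 3 against 293 and 285 (-6.02, interval -8.08 to -4.82). NRSN2-AS1 made up 94.5% of the counts of its pair in R-U87MG si-NC (exact binomial interval 86.6 to 98.5), 92.3% in R-U87MG si-HDAC6 (79.1 to 98.4), 10.4% in U87MG si-NC (7.31 to 14.2) and 3.72% in si-LINC00461 (1.87 to 6.55). The other opposite pairs were CCDC18-AS1, BAALC-AS1, PTPRG-AS1 and TMEM44-AS1, the last with 25 and 13 against 5 and 3 counts and TMEM44 with 484 and 385 against 1000 and 830. The ratio within the pair differed at least 2-fold in 84 of 201 pairs (41.8%), beside 36.3% of the neighbour pairs.

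**Figure D4:**
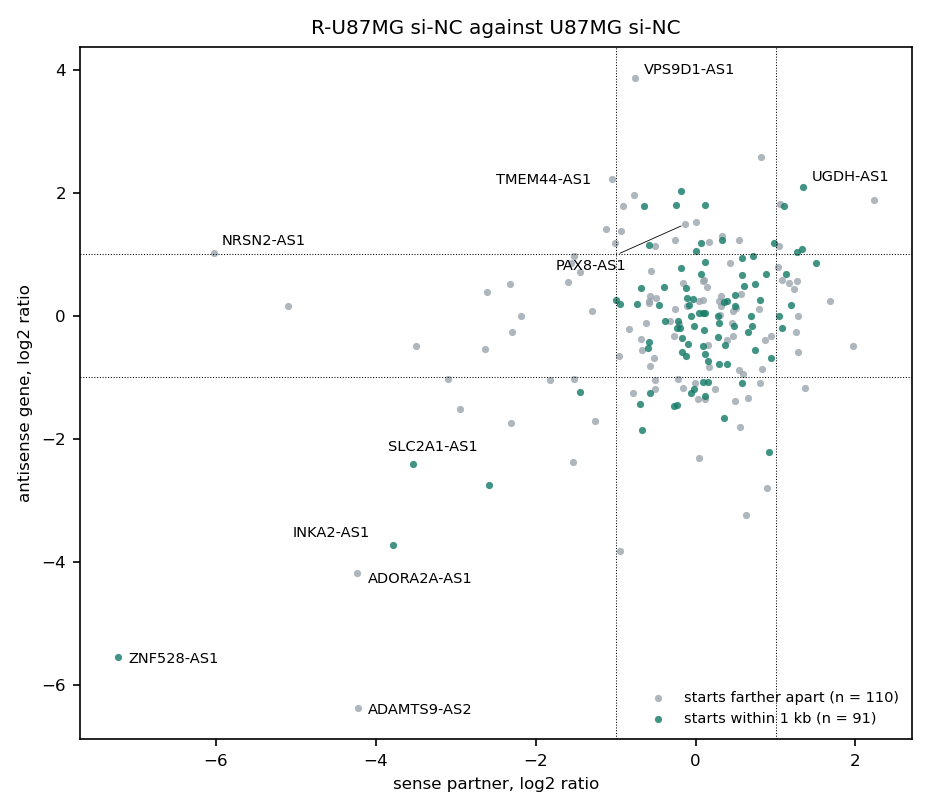
Log2 ratio of R-U87MG si-NC to U87MG si-NC for each antisense gene (vertical axis) and its sense partner (horizontal axis), 201 pairs, with dotted lines at 2-fold. ZNF528-AS1, INKA2-AS1 and ADORA2A-AS1 lie low on both axes and NRSN2-AS1 far to the left (-6.02) at 1.01, and points of genes with 0 counts depend on the pseudocount.

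In the 201 pairs, 23 sense partners were called higher in R-U87MG. Of 32 antisense genes called higher in R-U87MG that had a partner of at least 0.5 CPM, 7 had a partner that was called higher too. Among the 7 was NEXN-AS1, which passed the level limit through R-U87MG alone. The matching share of neighbour pairs was not computed. PAX8-AS1, the most abundant of the 32, had 3865 and 3701 counts in R-U87MG and 1382 and 928 in U87MG (1.49, interval 1.4 to 1.58). PAX8 had 489 and 425 against 538 and 189 (-0.13). VPS9D1-AS1 had 137 and 99 against 9 and 13 counts (3.86, interval 2.97 to 5.09), and VPS9D1 289 and 230 against 489 and 547 (-0.75). TSPEAR-AS2 had 115 and 79 against 7 and 20 counts (3.95, interval 2.95 to 5.39). ATP6V0E2-AS1 had 56 and 72 against 9 and 11 (2.58, interval 1.62 to 3.84), CPB2-AS1 41 and 18 against 5 and 16, and SLFNL1-AS1 16 and 23 against 2 and 2. The lines were separate in each of these, although R-U87MG si-HDAC6 and U87MG si-LINC00461 came close for CPB2-AS1 with 18 and 16 counts. SLFNL1-AS1 averaged under 0.5 CPM in U87MG and passed the level limit through R-U87MG alone. Its higher level in R-U87MG therefore followed from how it was chosen and is a description. FOXD2-AS1 had 38 and 29 against 17 and 17 counts (1.14, interval 0.30 to 2.08). GAS6-AS1, low in si-LINC00461, had 65 and 49 counts in R-U87MG against 134 and 15 in U87MG, so the libraries of the lines overlapped. VAC14-AS1 had 10 and 8 counts in R-U87MG, close to the 8 of U87MG si-LINC00461 and unlike the 73 of U87MG si-NC.

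**Figure D5:**
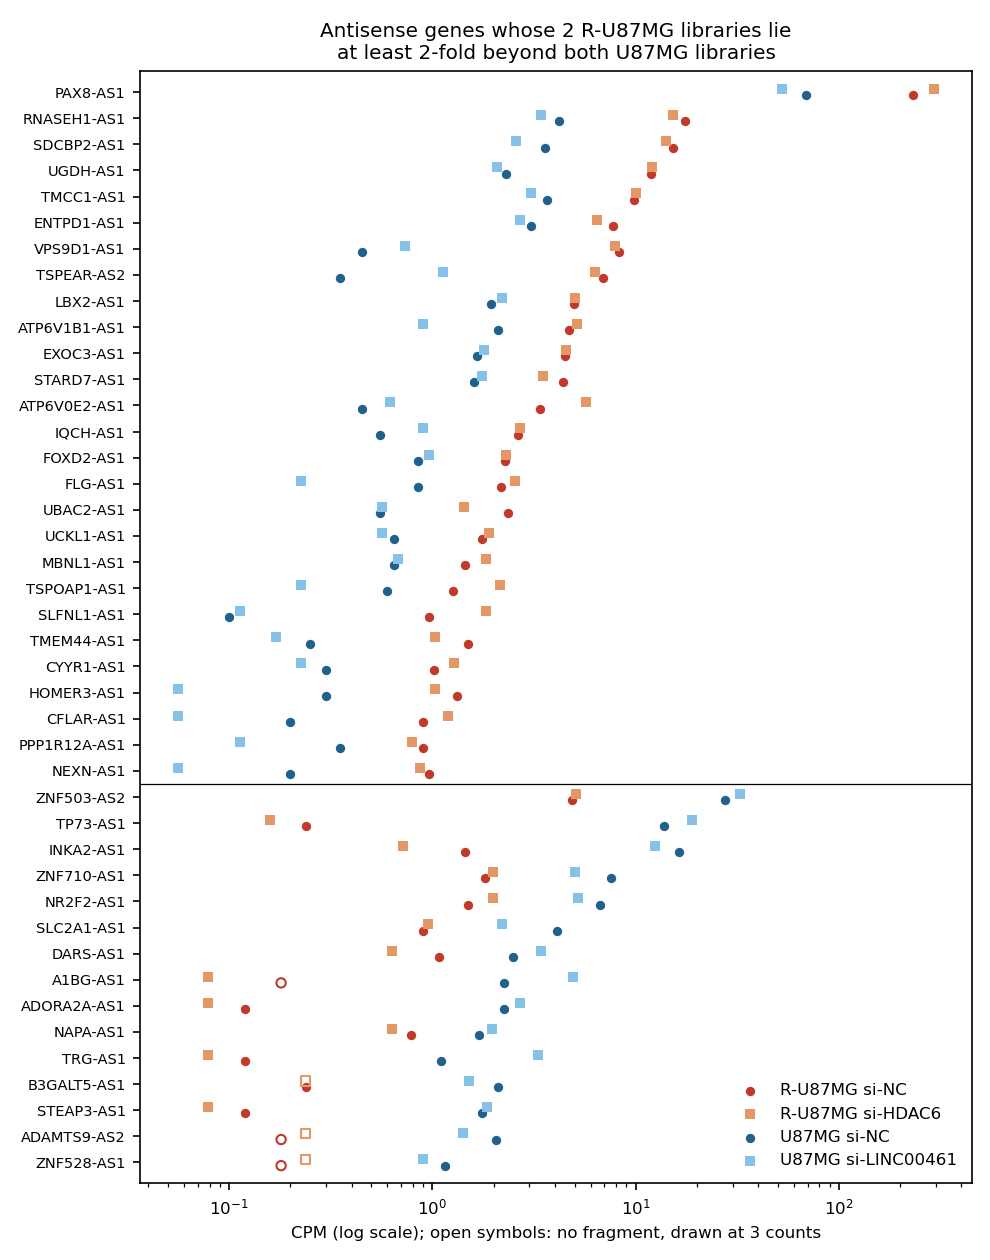
Levels in CPM (horizontal axis, log scale) of the 42 antisense genes (rows) whose R-U87MG libraries both lay at least 2-fold beyond both U87MG libraries, with 1 symbol per library and open symbols at the level of 3 counts where a gene had none. The upper block holds the 27 genes higher in R-U87MG, led by PAX8-AS1, and the lower block the 15 lower ones, down to ZNF528-AS1, and an open symbol can lie right of a symbol for 1 count.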

How the data were processed

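RNA-seq was made from 4 cultures, 1 library per condition. The authors deposited estimated counts per Ensembl gene, each library multiplied by 1 factor. The submitters' processing notes name bcl2fastq, Trimmomatic 0.36, HISAT2 and GRCh38.p13, and the counter, its annotation and its strand setting are not given in the sources used here. The factors (0.869, 1.151, 0.939 and 1.065 for R-U87MG si-NC, R-U87MG si-HDAC6, U87MG si-NC and U87MG si-LINC00461) were divided out. Values within 0.02 of a whole number made up 93.4% to 94.1% of them, and all were rounded.

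Identifiers were mapped to GENCODE 29, in which 57888 of 58226 were found, and sense partners, starts and exons were taken from it. Libraries were scaled pairwise with TMM in edgeR 4.0.16 (R 4.3.3) on 14632 genes with a mean of at least 0.5 CPM. Log2 ratios used a pseudocount of 0.5, and 95% intervals are exact binomial (Clopper-Pearson) in scipy 1.17.1. With 1 library per condition no test between conditions was made, and genes were called by a fold of 2. Intervals and the limit of 3 counts cover counting error only. The calculation was tested on simulated data. Tables were handled with Python 3.11.15, numpy 2.4.6 and pandas 2.3.3, and plots drawn with matplotlib 3.10.9.

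The members and the lists by role of the partner were chosen with earlier results of these data known. Named genes were the 10 of highest mean CPM, the 6 highest and 6 lowest called ratios per comparison with at least 10 counts, the 5 pairs at either end in each knockdown with at least 20 counts of each gene, the 3 genes either side of the level limit, and a list of antisense genes described in tumours or with matrix and cell cycle partners. Others named were chosen after their values were seen. Some genes that this rule names are not reported here. Alternatives were DESeq2 1.42.0 size factors, upper-quartile and library-total scaling, pseudocounts, level limits, other folds, thinning to equal depth and pairs without shared exonic bases.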

Additional observations from a re-analysis of the deposited data

How the results depend on the processing

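No paired analysis was possible because each condition had 1 library and the labels carry no replicate numbers. For the same reason no library could be left out within a condition. In si-HDAC6 the 3 lower antisense genes became 1 with a pseudocount of 5, 5 at equal depth, 0 with a limit of 1 CPM, 16 with 0.25 CPM, 93 with no limit, 21 at 1.5-fold, 1 with intervals that exclude no change and 0 with intervals wholly beyond 2-fold. The 7 higher became 3 (pseudocount 5), 4 (1 CPM), 17 (0.25 CPM), 89 (no limit), 25 (1.5-fold) and 1 (wholly beyond 2-fold). The 13 pairs became 5 with a pseudocount of 5 and 5 without shared exonic bases. In si-LINC00461 the 34 lower became 19 (1 CPM), 118 (no limit), 68 (1.5-fold) and 5 (wholly beyond), the 16 higher became 30 (0.25 CPM), 106 (no limit), 37 (1.5-fold) and 2 (wholly beyond), and the 59 pairs became 18 without shared exonic bases. Between the lines the 52 lower became 33 with library totals, 147 with no limit, 19 wholly beyond 2-fold and 15 by both libraries of each line, an alternative added after seeing the data. That alternative compared CPM, which rests on library totals and not on TMM. The 40 higher became 145 (no limit) and 11 (wholly beyond), the median of 0.005 became 0.265 with library totals, and the 84 pairs became 22 without shared exonic bases. The sets differ in size, with 177 genes at 1 CPM and 305 at 0.25 CPM in place of 241. Pairs without shared exonic bases numbered 59 in place of 201, so the 5, 18 and 22 such pairs are counts out of 59. Of 1152 values of named genes under 6 settings, 1136 stayed within the counting interval, 16 left it and 0 changed sign while called. Depth limits genes below about 1 CPM, where the 3-count limit is 0.150 to 0.238 CPM.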
